A study of Rattus norvegicus with 20 samples.

Results

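Neurotrophic factors are secreted proteins that keep neurons alive and shape their connections, and 8 genes of these families were followed through 20 RNA-seq libraries of rat brain white matter and spinal cord. The 8 genes were chosen by name from a table of 30443 genes: the ligands Bdnf, Ntf3, Gdnf and Cntf, and the receptors Ntrk2, Ntrk3, Ngfr and Gfra1. Each symbol had 1 entry in the table. The libraries came from 4 adult female wild-type Long-Evans rats aged about 6 to 8 months, and 5 tissue regions were sequenced from each rat. All 4 rats had a hemi-contusion of the spinal cord at cervical level 4 with a displacement of 0.7 mm. In all of them an electrode array was implanted into the motor cortex opposite the lesion 2 weeks later. The stimulated animals (n = 2) received 10 Hz stimulation for 5 hours a day, in cycles of 5 minutes on and 2 minutes off, at 80% of the movement threshold, for 1 week. The control animals (n = 2) carried the same injury and the same implant, were connected in the same way and received no current. No uninjured animal was sampled, so every level below is a level after injury. White matter beneath the array was dissected as Region 1, in blocks of 5 mm3, and its mirror position in the opposite hemisphere as Region 2. Region 3 was the cord rostral to the lesion, Region 4 the lesion itself and Region 5 the cord caudal to it. Each region held 4 libraries, one from each animal.

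BDNF, the product of Bdnf, binds the receptor tyrosine kinase TrkB, the product of Ntrk2. NT-3, the product of Ntf3, binds TrkC, the product of Ntrk3. Both ligands, and their uncleaved proforms, also bind p75, the product of Ngfr, which is known for high levels in non-myelinating and injured Schwann cells and in some neurons. GDNF signals through GFRα1, the product of Gfra1, which is anchored in the membrane and works with the receptor tyrosine kinase Ret. GDNF and GFRα1 are known for the survival of motor neurons. CNTF is a cytokine of glia, made by astrocytes and by Schwann cells, and it signals through CNTFRα, LIFR and gp130. Truncated TrkB and TrkC isoforms lack the kinase domain, and the gene-level values used here do not separate isoforms.

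Promoter sequences of RefSeq (build GRCr8, later than the Rnor6 build the authors aligned to) were matched by symbol for 5 of the 8 genes, in 12 windows of 250 bases before to 50 after an annotated start. A window is shown for each of the 3 genes with a window whose levels differed most between white matter and cord, in gene orientation, to place the start from which these transcripts are annotated. Bdnf has 6 windows, and its window 4, the only one of the 6 with a match to TGACG on either strand, is given. The capitals mark matches to TGACG (the first 5 letters of the cyclic AMP response element) in Bdnf, to GGGCGG (the GC box) in Gfra1 and to TGANTCA (the AP-1 site) in Cntf, each searched on both strands. The windows lie at chr3:116637608-116637907 on the plus strand for Bdnf, chr1:267555762-267556061 on the minus strand for Gfra1 and chr1:219314486-219314785 on the minus strand for Cntf.
Bdnf window 4: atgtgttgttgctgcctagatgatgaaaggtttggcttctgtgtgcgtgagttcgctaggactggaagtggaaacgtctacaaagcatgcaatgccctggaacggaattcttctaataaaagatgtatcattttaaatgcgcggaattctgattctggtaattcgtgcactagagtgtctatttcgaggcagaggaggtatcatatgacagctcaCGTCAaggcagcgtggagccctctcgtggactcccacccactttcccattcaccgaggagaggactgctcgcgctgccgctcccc
Gfra1: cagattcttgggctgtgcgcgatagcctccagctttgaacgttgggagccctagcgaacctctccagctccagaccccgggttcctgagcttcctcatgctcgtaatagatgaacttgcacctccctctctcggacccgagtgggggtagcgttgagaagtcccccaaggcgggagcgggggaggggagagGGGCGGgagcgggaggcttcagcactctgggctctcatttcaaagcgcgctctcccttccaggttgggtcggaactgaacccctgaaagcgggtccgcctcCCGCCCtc
Cntf: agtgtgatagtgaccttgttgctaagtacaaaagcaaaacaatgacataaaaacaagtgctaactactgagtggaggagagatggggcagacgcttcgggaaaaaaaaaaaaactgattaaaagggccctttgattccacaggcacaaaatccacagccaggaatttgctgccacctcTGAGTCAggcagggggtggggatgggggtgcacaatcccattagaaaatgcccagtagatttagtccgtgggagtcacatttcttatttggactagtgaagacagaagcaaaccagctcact

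The Bdnf match began at position -35 from the start, the Cntf match at -72, and the Gfra1 matches at -59 and 42. Of all 33365 promoter windows of the same length, 21.2% held TGACG, 33.1% held GGGCGG and 7.34% held TGANTCA. The full element TGACGTCA, whose letters include TGACG, stood in 1.83% of all windows and in 0 of the 12 windows of these genes. TTCNNNGAA, the motif of STAT factors, stood in 8.88% of all windows and, among the windows of these genes, only in window 1 of Bdnf. Window 3 of Bdnf, not shown, matched TGANTCA and GGGCGG. A match is a string of letters and was not tested as a binding site.

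Values were FPKM, fragment numbers scaled to transcript length and to the size of the library, so levels of different genes are compared per length. The authors set every value below 0.1 to 0.1, and 39.7% of all values stood at that floor. Read counts were not used here, so the depth behind a single value is unknown. The FPKM of a library summed to between 191481 and 290718. The tissue labels were checked against marker genes. The 6 Hox genes of spinal cord position stood at 0.1 in all 8 white matter libraries and summed to between 17.4 and 35.8 FPKM in the cord libraries. The 5 markers of cortical neurons summed to between 260 and 383 FPKM in the white matter libraries and to between 3.39 and 17.3 FPKM in the cord. The methods of the study state that the cortex was discarded, so the white matter blocks carried RNA of cortical neurons against that description. The region 2 library of stimulated animal 2 stood apart from the other region 2 libraries in glial markers: its astrocyte markers summed to 1020 FPKM, where the median of the 4 libraries was 314 FPKM.

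Ntrk2 was the most abundant of the 8 genes in every region, and its ligand gene Bdnf was far lower. Mean Ntrk2 was 58.2 ± 6.98, 58.7 ± 3.44, 48.7 ± 4.57, 47.3 ± 3.99 and 47.1 ± 5.56 FPKM in Regions 1 to 5 (SD, n = 4 each). The ratio of Ntrk2 to Bdnf averaged 14.2 in Region 2 and 77.8 in Region 4. Gdnf and Ntf3 were at the bottom of the scale. Gdnf was listed at the floor of 0.1 FPKM in 15 of 20 libraries, with a highest value of 0.257 FPKM. Ntf3 was listed at the floor in 12 of 20 libraries, with a highest value of 0.314 FPKM. Both are reported as listed, and neither reached the 1 FPKM in any library that a gene needed to enter the tests. That filter kept 15210 genes, with 6 of the 8 genes among them. Ngfr passed it only through cord libraries. Within a region the replicates were separate animals. The white matter (n = 8) and cord (n = 12) groups held several libraries of each animal, and the main fit had no term for the animal. Between Regions 1 and 2, deviations of libraries of the same animal correlated at 0.588 across genes (mean over 4 animals). Between the other pairs of regions this correlation ran from -0.033 to 0.208.

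**Figure D1:**
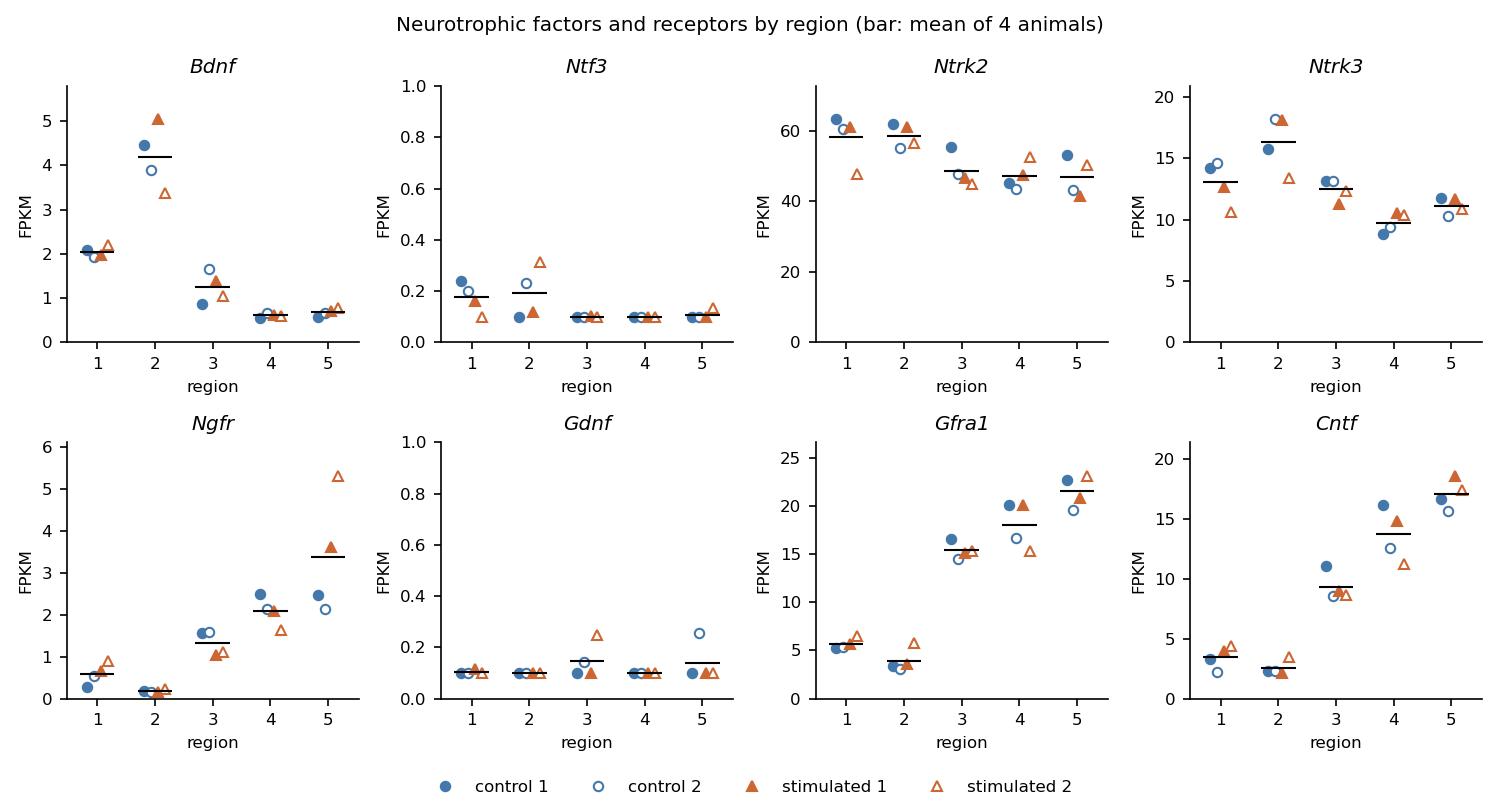
FPKM (linear axes from 0, with a range of its own for each gene) of the 8 genes in Regions 1 to 5, with one point per library (circles for control and triangles for stimulated animals) and a bar at the mean of the 4 animals. Bdnf falls from Region 2 to Regions 4 and 5, Ngfr, Gfra1 and Cntf run the other way, Ntrk2 stays between 41.5 and 63.3 FPKM, and Gdnf and Ntf3 lie at or near the floor of 0.1 FPKM.

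The first comparison asked how the white matter blocks of the brain differed from the injured cord. Bdnf, Ntrk2 and Ntrk3 were higher in white matter, and Ngfr, Gfra1 and Cntf were lower. The differences ran from 1.88 for Bdnf to -2.73 for Ngfr on the log2 scale. All 6 tested genes passed limma's moderated test at an adjusted p of 0.05, 3 in each direction. Between these tissues 72.2% of all genes passed, 25.0% as higher and 47.1% as lower, so passing the test was the usual outcome and the count is no result about these genes. The median difference over all genes was -0.18 on the log2 scale, and -0.04 after quantile normalization.

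Of the ligands, Bdnf, which is made mainly by excitatory neurons, had a mean of 3.12 ± 1.25 FPKM in white matter (SD, n = 8) and 0.844 ± 0.351 FPKM in cord (SD, n = 12). In Region 1 its values were 2.1 and 1.92 FPKM in control animals and 1.96 and 2.2 FPKM in stimulated animals. In Region 2 they were 4.47, 3.90, 5.04 and 3.38 FPKM in the same order. The groups did not overlap, since the highest cord value was 1.67 FPKM, in Region 3. The difference was 1.88 on the log2 scale (SE 0.11, limma adjusted p = 1.49e-11), and 1.13 with 1 FPKM added before the log. Neuron markers moved in part with it. The 5 general neuron markers summed to a median of 1174 FPKM in white matter and 834 FPKM in cord, with 3 of 5 higher and 1 lower. All 5 cortical neuron markers were higher. Their part in the Bdnf difference was not tested. In such bulk samples fewer cells of a type and less RNA per cell cannot be told apart.

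Cntf ran opposite to Bdnf. Its values were 3.27, 2.19, 4.00 and 4.38 FPKM in Region 1 and 2.30, 2.30, 2.14 and 3.49 FPKM in Region 2, in the order control 1, control 2, stimulated 1 and stimulated 2. In Region 5 they were 16.7, 15.7, 18.6 and 17.4 FPKM. Every white matter library was below every cord library. The mean was 3.01 ± 0.893 FPKM in white matter (SD, n = 8) and 13.4 ± 3.63 FPKM in cord (SD, n = 12), a difference of -2.15 on the log2 scale (SE 0.12, limma adjusted p = 6.58e-12). Glial markers moved the same way: 4 of 5 astrocyte markers, 5 of 5 oligodendrocyte markers and 4 of 5 Schwann cell markers were lower in white matter. These Schwann cell markers reached 1 FPKM only in cord libraries, so their calls are a description. The astrocyte markers summed to between 262 and 1223 FPKM in white matter and to between 1227 and 2704 FPKM in cord, and the oligodendrocyte markers to between 662 and 2778 FPKM and between 7096 and 10380 FPKM. Their part in the difference was not tested. Zfp91, the gene next to Cntf whose transcripts can run into it, was at 19.4 to 32.2 FPKM in all 20 libraries and did not pass the test (-0.13 on the log2 scale, limma adjusted p = 0.0811).

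Gdnf was at the floor in 7 of 8 white matter and 8 of 12 cord libraries. Ntf3 was at the floor in 2 of 8 white matter and 10 of 12 cord libraries. Its values were 0.238, 0.202, 0.163 and 0.1 FPKM in Region 1 and 0.1, 0.23, 0.119 and 0.314 FPKM in Region 2. No fold is given for either gene, since both stood near the floor.

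Of the receptors, Ntrk2 and Ntrk3 differed least. Ntrk2, carried by neurons and, in its truncated form, by astrocytes, was 0.29 higher in white matter on the log2 scale (SE 0.07, limma adjusted p = 0.000542), with means of 58.4 ± 5.10 FPKM (SD, n = 8) and 47.7 ± 4.37 FPKM (SD, n = 12). Its libraries overlapped between the tissues, from 47.9 to 63.3 FPKM in white matter and from 41.5 to 55.4 FPKM in cord. Ntrk3 was 0.39 higher (SE 0.07, limma adjusted p = 6.17e-05), with means of 14.7 ± 2.60 FPKM (SD, n = 8) and 11.1 ± 1.37 FPKM (SD, n = 12), and its libraries overlapped too. The lowest white matter value of Ntrk3 was 10.7 FPKM, in stimulated animal 2 of Region 1, and the lowest in cord was 8.79 FPKM.

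Ngfr was lower in white matter. It stood at 0.28, 0.53, 0.66 and 0.901 FPKM in Region 1 and at 0.175, 0.155, 0.15 and 0.226 FPKM in Region 2, in the order used above. The cord values ran from 1.04 FPKM in Region 3 to 5.32 FPKM in Region 5, and every one was above every white matter value. The difference was -2.73 on the log2 scale (SE 0.20, limma adjusted p = 4.70e-10), with means of 0.385 ± 0.281 FPKM (SD, n = 8) and 2.27 ± 1.19 FPKM (SD, n = 12). With 1 FPKM added before the log, the Ngfr difference was -1.19. No white matter library and all 12 cord libraries reached 1 FPKM, so Ngfr entered the test only through the cord, and its call and lack of overlap are a description. Schwann cell markers moved with it for 4 of 5 genes, and 1, Egr2, which neurons also express, was higher in white matter. Those 4 reached 1 FPKM only in cord libraries and Egr2 only in white matter libraries, so their calls are a description too. The 5 markers summed to between 1.76 and 5.63 FPKM in white matter and to between 4.13 and 35.9 FPKM in cord. Ncmap, a Schwann cell membrane gene, was at the floor in all 8 white matter libraries. Their part in the difference was not tested.

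Gfra1 values were 5.23, 5.33, 5.64 and 6.51 FPKM in Region 1 and 3.33, 3.02, 3.59 and 5.71 FPKM in Region 2, again in that order. The cord libraries lay between 14.5 and 23.1 FPKM, all above the white matter libraries. The difference was -1.96 on the log2 scale (SE 0.10, limma adjusted p = 8.71e-13), with means of 4.80 ± 1.29 FPKM (SD, n = 8) and 18.3 ± 3.09 FPKM (SD, n = 12). Motor neurons are a known site of Gfra1. The 4 motor neuron markers in the table summed to between 0.726 and 1.70 FPKM in white matter and to between 16.8 and 39.7 FPKM in cord, and all 3 that were tested were lower in white matter. Their part in the Gfra1 difference was not tested. Groups thus did not overlap for Bdnf, which lay above, and for Gfra1 and Cntf, which lay below, where 27.1% of all genes had no overlap. Ngfr, which entered only through the cord, is left out of this comparison.

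**Figure D2:**
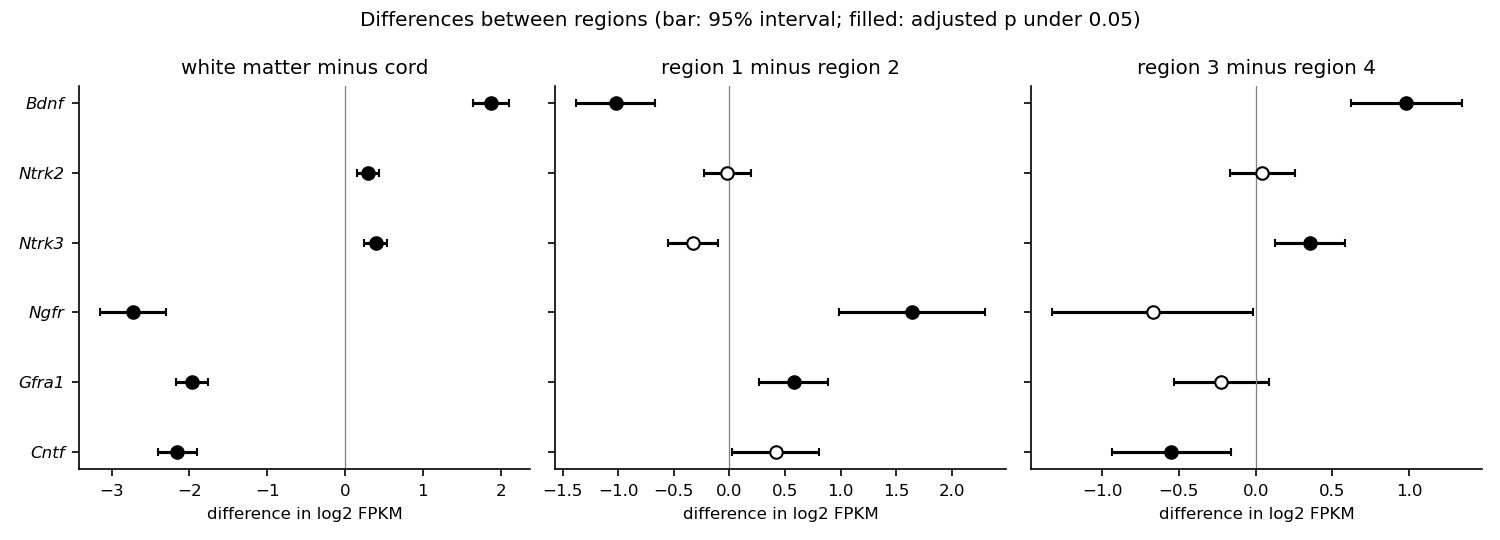
Difference in log2 FPKM of the 6 tested genes for white matter minus cord, Region 1 minus 2 and Region 3 minus 4, with 95% intervals from limma and filled points where the adjusted p was under 0.05. Bdnf lies right of 0 and Ngfr, Gfra1 and Cntf left of it between white matter and cord, while between Regions 1 and 2 Bdnf lies left and Ngfr and Gfra1 right.

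Between the white matter blocks, the side under the electrodes had less Bdnf and more Ngfr and Gfra1. Of the 6 tested genes 3 passed, beside 8.61% of all genes. Bdnf averaged 2.05 ± 0.129 FPKM in Region 1 and 4.20 ± 0.715 FPKM in Region 2 (SD, n = 4 each). It was lower under the electrodes in 4 of 4 animals, by -1.02 on the log2 scale (SE 0.17, limma adjusted p = 0.00291). Ngfr was higher there in 4 of 4 animals, by 1.64 (SE 0.31, limma adjusted p = 0.00574), with every value under 1 FPKM. With 1 FPKM added before the log the Ngfr difference was 0.42 (limma adjusted p = 0.141), and after quantile normalization it was 1.04 (limma adjusted p = 0.0513). Gfra1 was higher in 4 of 4 animals, by 0.58 (SE 0.15, limma adjusted p = 0.0232), and this call was lost without a filter (0.0617). Ntrk3 (-0.33), Cntf (0.42) and Ntrk2 (-0.02) did not pass, with limma adjusted p of 0.0685, 0.169 and 0.94. Groups of Bdnf and Ngfr did not overlap between the blocks, which held for 7.57% of all genes. The control animals carried the implant as well, and with the 2 control animals alone the Bdnf difference was -1.06 (limma adjusted p = 0.0746).

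Other cell type markers differed between these blocks. Oligodendrocyte markers were higher in Region 1 for 4 of 5 genes, with sums of 1393 to 2778 FPKM beside 662 to 1285 FPKM in Region 2. All 4 tested markers of fibroblasts and meninges were higher, with sums of 27.2 to 146 FPKM beside 6.23 to 42.8 FPKM. None of the 5 general neuron markers passed, and their sums were 789 to 1178 FPKM and 1125 to 1440 FPKM. Schwann cell markers summed to no more than 5.63 FPKM in either block, and 1 of 5, Pmp2, was higher in Region 1 (0.718 FPKM beside 0.153 FPKM on average). The part of these cell types in the Bdnf, Ngfr and Gfra1 differences was not tested. Without stimulated animal 1 the limma adjusted p of these 3 genes were 0.129, 0.168 and 0.273, and without the region 2 library of stimulated animal 2 the Ntrk3 and Cntf differences passed, at 0.00678 and 0.0255.

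Along the cord, Bdnf was highest rostral to the lesion. Its values in Region 3 were 0.867 and 1.67 FPKM in control animals and 1.38 and 1.05 FPKM in stimulated animals. In Region 4 they were 0.561, 0.654, 0.619 and 0.604 FPKM, and in Region 5 they were 0.581, 0.674, 0.704 and 0.769 FPKM. Region 3 did not overlap with either of the others, which held for 28.8% of all genes against Region 4 and 25.5% against Region 5. It exceeded the lesion by 0.98 on the log2 scale (SE 0.17, limma adjusted p = 0.000907) and the caudal cord by 0.83 (SE 0.17, limma adjusted p = 0.0119). Neuron markers were also higher in Region 3 than in Region 4 for 4 of 5 genes, with median sums of 863 and 577 FPKM. Between Regions 3 and 5, whose median sums were 863 and 842 FPKM, 1 was higher and 2 were lower in Region 3.

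Ngfr and Cntf rose toward the caudal cord. Cntf averaged 9.31 ± 1.17, 13.7 ± 2.21 and 17.1 ± 1.23 FPKM in Regions 3, 4 and 5 (SD, n = 4 each). Its Region 3 values were 11, 8.59, 8.97 and 8.65 FPKM, all below those of the other cord regions, the lowest of which was 11.2 FPKM in Region 4. The difference of Region 3 from Region 4 was -0.55 (SE 0.19, limma adjusted p = 0.0449) and from Region 5 -0.88 (SE 0.19, limma adjusted p = 0.0128). Ngfr averaged 1.32 ± 0.293, 2.09 ± 0.348 and 3.39 ± 1.44 FPKM. Its difference of Region 3 from Region 5 was -1.29 (SE 0.31, limma adjusted p = 0.0264) and from Region 4 -0.67 (limma adjusted p = 0.136). Schwann cell markers had median sums of 7.71, 19.3 and 25.3 FPKM. Of the 5, all were lower in Region 3 than in Region 4 and none passed between Regions 4 and 5. In control animals their mean sums were 5.84, 20.1 and 16.8 FPKM. Their part in the Ngfr difference was not tested. In the control animals alone the Ngfr difference between Regions 3 and 5 was -0.54 (limma adjusted p = 0.381), and without the stimulated libraries of Region 5 it was -0.82 (limma adjusted p = 0.406). The Cntf differences lost their calls in the control animals alone as well, at limma adjusted p of 0.118 and 0.184. The Cntf call between Regions 3 and 4 was also lost without a filter (0.105) and without a trend (0.0533). The Ngfr call between Regions 3 and 5 was lost without a filter (0.0647).

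Gfra1 averaged 15.4 ± 0.858, 18.0 ± 2.43 and 21.5 ± 1.67 FPKM along the cord (SD, n = 4 each), and no pair of cord regions passed the test in the fit to all libraries. The difference closest to it was that of Region 3 from Region 5, -0.49 with a 95% interval from -0.80 to -0.17 (limma adjusted p = 0.0695). It passed with 1 FPKM added before the log (0.0416), after quantile normalization (0.0491), without stimulated animal 2 (0.0148) and without the region 2 library of that animal (0.00844), and the difference of Region 3 from Region 4 passed without stimulated animal 2 (0.0248). Motor neuron markers had median sums of 19.2, 25.0 and 38.5 FPKM. Ntrk3 averaged 12.5 ± 0.918, 9.77 ± 0.831 and 11.1 ± 0.702 FPKM. It was higher rostral to the lesion than in it by 0.35 (SE 0.11, limma adjusted p = 0.0299), with no overlap of the libraries. That call was lost after quantile normalization (0.0524), with upper-quartile scaling (0.0643) and without a filter (0.0601). Ntrk2 differences among cord regions were between 0.01 and 0.05, with 95% intervals inside -0.20 and 0.27. Of the 6 tested genes, 3 passed between Regions 3 and 4 and 3 between Regions 3 and 5, where 19.6% and 4.32% of all genes passed. None passed between Regions 4 and 5, where 7.99% of all genes passed, and the limma adjusted p lay between 0.197 and 0.97.

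Set against single cord regions, Region 2 differed from each for all 6 tested genes, where 56.8%, 66.6% and 69.3% of all genes differed from Regions 3, 4 and 5. Region 1 differed from Region 4 for all 6, where 52.6% of all genes did. From Regions 3 and 5 it differed for 5 genes each, where 47.1% and 58.3% did, and the exception was Ntrk3 in both, with limma adjusted p of 0.694 and 0.093. The Ntrk3 difference from Region 5 passed after quantile normalization (0.0199), with upper-quartile scaling (0.0181), without stimulated animal 2 (0.0150) and in control animals alone (0.0125). Without stimulated animal 1 none of the 6 Ntrk2 differences between a white matter block and a cord region passed, at limma adjusted p of 0.225, 0.101 and 0.162 for Region 1 and 0.159, 0.0615 and 0.109 for Region 2, against Regions 3, 4 and 5. Without control animal 2 those of Region 1 did not pass either (0.195, 0.160 and 0.127), nor did those of Region 2 against Regions 3 and 4 (0.0794 and 0.0569). Without control animal 1 the calls of Region 1 against Regions 3 and 4 (0.0797 and 0.128) and of Region 2 against Region 4 (0.0644) were lost. For Ntrk3 the call of Region 2 against 3 was lost without stimulated animal 1 (0.104) and that of Region 1 against 4 without control animal 1 (0.0847) or 2 (0.0532), and for Ngfr that of Region 1 against 3 without control animal 1 (0.0518).

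With 1 animal left out at a time, further calls were lost. For Regions 1 and 2 the Ngfr call was also lost without control animal 2 (limma adjusted p = 0.0777), and that of Gfra1 without control animal 1 (0.169) or 2 (0.172). The Bdnf call between Regions 3 and 5 was lost without control animal 2 (0.126) or stimulated animal 1 (0.123), and that between Regions 3 and 4 was kept with any animal left out. In control animals alone neither passed (0.0513 between Regions 3 and 4 and 0.195 between Regions 3 and 5), and without the stimulated Region 5 libraries the latter did not pass (0.081). The Ngfr call between Regions 3 and 5 was lost without control animal 2 (0.0864), stimulated animal 1 (0.205) or stimulated animal 2 (0.0593). The Cntf and Ntrk3 calls among cord regions were each lost without control animal 1, control animal 2 or stimulated animal 1, at adjusted p between 0.052 and 0.229.

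Put in order, Bdnf levels fell from Region 2 to 1, 3, 5 and 4, and each step in that order passed except that from Region 5 to 4. Ngfr and Gfra1 fell from Region 5 to 4, 3, 1 and 2, and the steps between cord regions did not pass while the steps to Region 1 and to Region 2 did. Cntf had the same order, and its steps from Region 4 to 3 and from Region 3 to 1 passed. For Ntrk3, ordered 2, 1, 3, 5 and 4, no step between neighbours passed, although the difference between Regions 2 and 4 did. For Ntrk2 only the step from Region 1 to Region 3 passed, with a limma adjusted p of 0.0481, and it did not pass without a filter (0.0811), without a trend (0.0553) or in control animals alone (0.128).

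The genes whose log2 levels over the 20 libraries were most like each of the 6 were found among 13263 genes by Pearson's r. These are descriptions, since the 20 points share animals and tissues. For Bdnf they were Sertm1 (r = 0.976) and Pcsk1 (r = 0.973), a prohormone convertase. For Ntrk2 they were Apc (0.957) and Bcr (0.956), and for Ntrk3 the neuronal kinase gene Brsk2 (0.948) and Begain (0.947). For Ngfr they were Pmp22 (0.975), a gene of peripheral myelin, and Clec2j (0.972). For Gfra1 they were Tex9 (0.995) and Elovl5 (0.995), and for Cntf Sqrdl (0.994) and Tmem189 (0.990). Among the genes themselves Gfra1 and Cntf had r = 0.981, and Bdnf had r between -0.939 and -0.925 with Ngfr, Gfra1 and Cntf.

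Other genes of these pathways were read from lists that were chosen with earlier results known, so a list count is a description beside the background of 72.2%. In white matter against cord, of 5 tested genes among the other neurotrophins and their receptors 4 were higher and 1 lower, with a median of 0.40 on the log2 scale. Sorcs3, a sortilin-family receptor, averaged 5.53 ± 1.20 FPKM in white matter (SD, n = 8) and 3.16 ± 0.609 FPKM in cord (SD, n = 12). Nradd, a relative of the p75 gene, was lower (-1.03). Sorcs2, of the same family as Sorcs3, was 0.57 higher (6.15 ± 0.532 FPKM beside 4.14 ± 0.414 FPKM).

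Among 6 tested genes of the GDNF family 2 were higher and 3 lower, with a median of -0.47. Ret, the signalling partner of GFRα1, averaged 0.937 ± 0.527 FPKM in white matter (SD, n = 8) and 13.5 ± 2.28 FPKM in cord (SD, n = 12), a difference of -4.04 (SE 0.21, limma adjusted p = 2.78e-12). Gfra4 was higher (1.69), at 1.02 ± 0.25 FPKM beside 0.323 ± 0.0963 FPKM, and entered the test only through white matter libraries, while Nrtn, which encodes neurturin (-1.08), was lower. Among 6 tested genes of the CNTF family 3 were lower and none higher, with a median of -0.63. Both signalling receptors of CNTF were among the 3: Lifr averaged 7.02 ± 1.49 and 16.3 ± 1.92 FPKM (-1.24), and Il6st, which encodes gp130, 18.9 ± 4.11 and 43.5 ± 6.29 FPKM (-1.22). Ctf1, which encodes cardiotrophin-1, was the other (-0.50). The gene of the binding subunit, Cntfr, added after its values were seen, did not pass (0.12, limma adjusted p = 0.229).

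Of 9 tested genes that process proneurotrophins 6 were higher and 1 lower, with a median of 1.07. The convertase gene Pcsk2 averaged 50.2 ± 9.53 FPKM in white matter and 17.0 ± 4.36 FPKM in cord (1.58, limma adjusted p = 3.99e-12). Mmp9, a gelatinase, was 3.15 higher, at 1.98 ± 1.27 FPKM in white matter beside 0.383 ± 0.756 FPKM in cord. Its cord mean was near the floor, with a spread larger than the mean. Plat, which encodes tissue plasminogen activator, was lower (-1.36). Of 14 tested adaptor genes of Trk and p75 receptors 4 were higher and 9 lower, with a median of -0.28. Gab1 (-1.29) and Shc1 (-0.74) were lower and Shc2 (0.76) was higher. Of 9 other secreted trophic factors 2 were higher and 5 lower, with a median of -0.34. Igf1 (-1.71), Igf2 (-1.59) and Vegfb (-1.07) were lower in white matter.

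**Figure D3:**
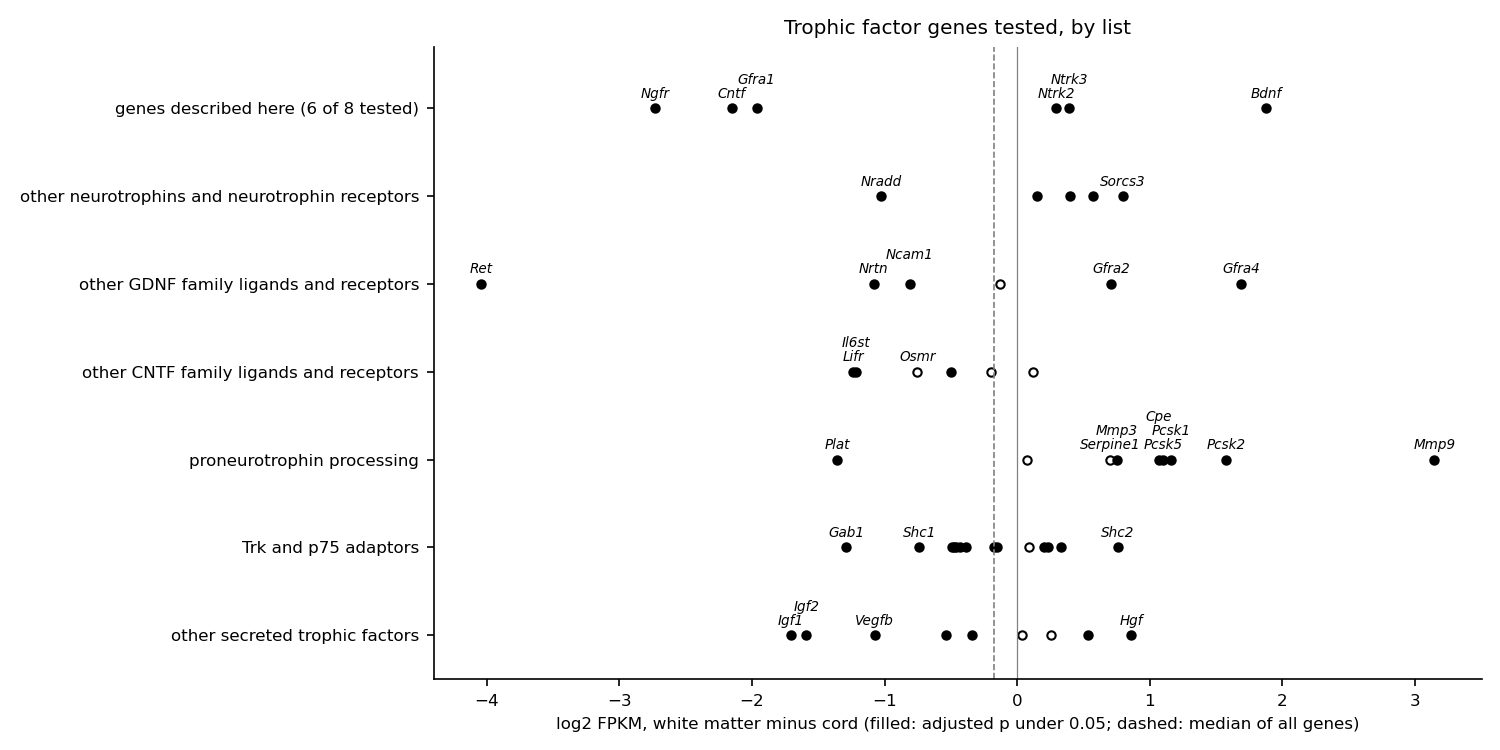
Difference in log2 FPKM, white matter minus cord, of each tested gene in the 8-gene set and in 6 further lists, with filled points at an adjusted p under 0.05, a solid line at 0 and a dashed line at the median of all genes (-0.18). Ret (-4.04) lies furthest left and Mmp9 (3.15, with a cord mean of 0.383 FPKM near the floor) furthest right.

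Rostral to the lesion against the lesion, where 19.6% of all genes passed, the lists passed as follows. Of 5 other neurotrophin genes 1 was higher in Region 3, of 6 in the GDNF family 1 was higher, and of 6 in the CNTF family none passed. Of 9 processing genes 3 were higher and 1 lower, of 14 adaptor genes 3 were higher, and of 9 other secreted factors 1 was higher and 2 were lower. Pcsk1 (0.84, limma adjusted p = 0.000666) and Pcsk2 (0.79, limma adjusted p = 0.000662) were higher in Region 3, as Bdnf was, together with Pcsk5 (0.64). Sorcs3 (0.57), Gfra2 (0.38), Frs3 (0.51), Maged1 (0.40), Shc2 (0.34) and Vegfa (0.60) were also higher. Of the 3 that were lower, Igf1, which microglia and macrophages are known to make, had the largest change, at 6.13 ± 1.27 FPKM beside 31.1 ± 8.98 FPKM in the lesion (SD, n = 4 each), a difference of -2.31 (SE 0.35, limma adjusted p = 0.000399). The others were Hgf, which encodes hepatocyte growth factor (-1.53), and the convertase gene Furin (-0.46). Microglia and macrophage markers were lower for 4 of 6 genes in Region 3.

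The second comparison asked whether cortical stimulation changed these genes within a region. None of the 6 tested genes passed limma's test in any region, 0 of 30 values, and 0, 0, 0, 0 and 0.0197% of all genes passed in Regions 1 to 5. At an unadjusted p of 0.05 the numbers of all genes were 828, 215, 522, 341 and 546, and Ngfr in Regions 3 and 5 was the only one of the 6 genes below it. With 2 animals on each side the intervals were wide. For Bdnf, a gene known for induction by neuronal activity, the difference under the electrodes was 0.05 with a 95% interval from -0.47 to 0.57. In the caudal cord it was 0.23 with an interval from -0.16 to 0.63, and both stimulated values were above both control values. In Region 3, where the control values of 0.867 and 1.67 FPKM spanned those of the stimulated animals, it was 0.00126 with an interval from -1.14 to 1.14.

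Ngfr groups did not overlap in any region except Region 2. In Region 5 the controls stood at 2.47 and 2.14 FPKM and the stimulated animals at 3.62 and 5.32 FPKM. In Region 3 the controls stood at 1.56 and 1.60 FPKM and the stimulated animals at 1.04 and 1.11 FPKM. The direction in these regions was opposite. The difference was 0.93 in Region 5 (SE 0.25, 95% interval 0.25 to 1.62, limma unadjusted p = 0.0193, adjusted p = 1) and -0.56 in Region 3 (SE 0.12, limma unadjusted p = 0.0112, adjusted p = 0.956). In Region 4 the control values of 2.50 and 2.15 FPKM were above the stimulated values of 2.08 and 1.65 FPKM (-0.32, limma adjusted p = 1). Under the electrodes the stimulated values of 0.66 and 0.901 FPKM were above the control values of 0.28 and 0.53 FPKM (1.00, SE 0.41, limma adjusted p = 0.712). The effect in Region 5 minus that in Region 3, tested within animals, was 1.49 (SE 0.26, limma unadjusted p = 0.00319) and did not pass over all genes (adjusted p = 1), where 0.0131% of all genes did.

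Schwann cell genes stood higher in the same Region 5 libraries. Prx, the gene of the myelin protein periaxin, was at 5.69 and 4.49 FPKM in the controls, beside 12.9 and 11.4 FPKM in the stimulated animals, and Ncmap was at 3.67 and 3.01 FPKM beside 9.20 and 8.73 FPKM. In Region 4 Prx was lower in the stimulated animals, as Ngfr was, at 3.98 and 3.80 FPKM beside 5.76 and 5.49 FPKM. Of the other markers there, Dhh was lower as well (0.731 and 0.769 FPKM beside 1.09 and 1.02 FPKM). Ncmap, Pmp2 and Egr2 overlapped between the groups, and Pmp2 in stimulated animal 1 (9.65 FPKM) was above both controls. In Region 3 Prx did not follow Ngfr, at 2.15 and 0.881 FPKM in the controls and 1.86 and 3.53 FPKM after stimulation. The 5 Schwann cell markers summed to 14.8 and 18.8 FPKM in the controls and to 31.9 and 35.9 FPKM in the stimulated animals of Region 5, and none of the 5 passed the test there. Fibroblast markers summed to 44.8 and 47.3 FPKM and to 86.8 and 146 FPKM. The part of Schwann cells or fibroblasts in the Ngfr difference was not tested.

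**Figure D4:**
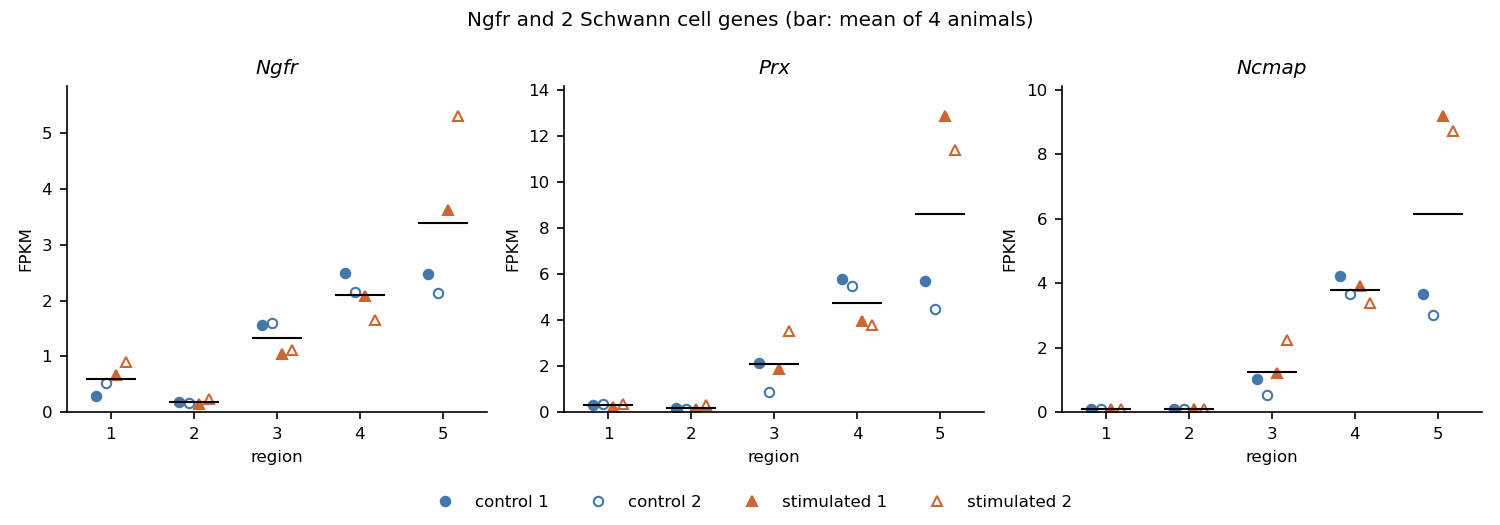
FPKM (linear axes from 0) of Ngfr, Prx and Ncmap in Regions 1 to 5, with one point per library (circles for control and triangles for stimulated animals) and a bar at the mean of the 4 animals. In Region 5 the stimulated animals are above the controls for all 3 genes (for Prx 12.9 and 11.4 FPKM beside 5.69 and 4.49 FPKM), and in Region 3 Ngfr is lower in both stimulated animals while Prx and Ncmap are not.

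Groups of the other receptors and ligands did not overlap in several regions. Gfra1 was highest in stimulated animal 2 of Region 2, at 5.71 FPKM beside 3.33, 3.02 and 3.59 FPKM, and both stimulated values were above the controls (0.51, SE 0.29, limma adjusted p = 0.949). Under the electrodes its control values of 5.23 and 5.33 FPKM were below the stimulated values of 5.64 and 6.51 FPKM, and the Ntrk3 control values of 14.2 and 14.6 FPKM were above the stimulated values of 12.7 and 10.7 FPKM. Cntf under the electrodes was at 3.27 and 2.19 FPKM in controls and 4.00 and 4.38 FPKM in stimulated animals (0.65, 95% interval -0.09 to 1.39). Astrocyte markers in the same libraries summed to 645 and 695 FPKM in controls and to 1071 and 1223 FPKM in stimulated animals, and their part in the difference was not tested. In Region 5 Cntf was at 16.7 and 15.7 FPKM in controls and at 18.6 and 17.4 FPKM in stimulated animals. Ntrk2 was lower in both stimulated animals of Region 3 (46.7 and 45.1 FPKM beside 55.4 and 47.9 FPKM) and higher in both of Region 4 (47.5 and 52.7 FPKM beside 45.3 and 43.5 FPKM). Ntrk3 showed the same pair of directions. The differences between these effects were 0.34 for Ntrk2 and 0.37 for Ntrk3, and neither passed (limma adjusted p = 0.929 for both). Over the 30 values the groups did not overlap in 14. The background differed by region: 40.6%, 27.0%, 29.9%, 20.2% and 24.6% of all genes did not overlap in Regions 1 to 5, beside 4, 1, 3, 3 and 3 of the 6 genes. No other gene of the pathway lists passed in any region.

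**Figure D5:**
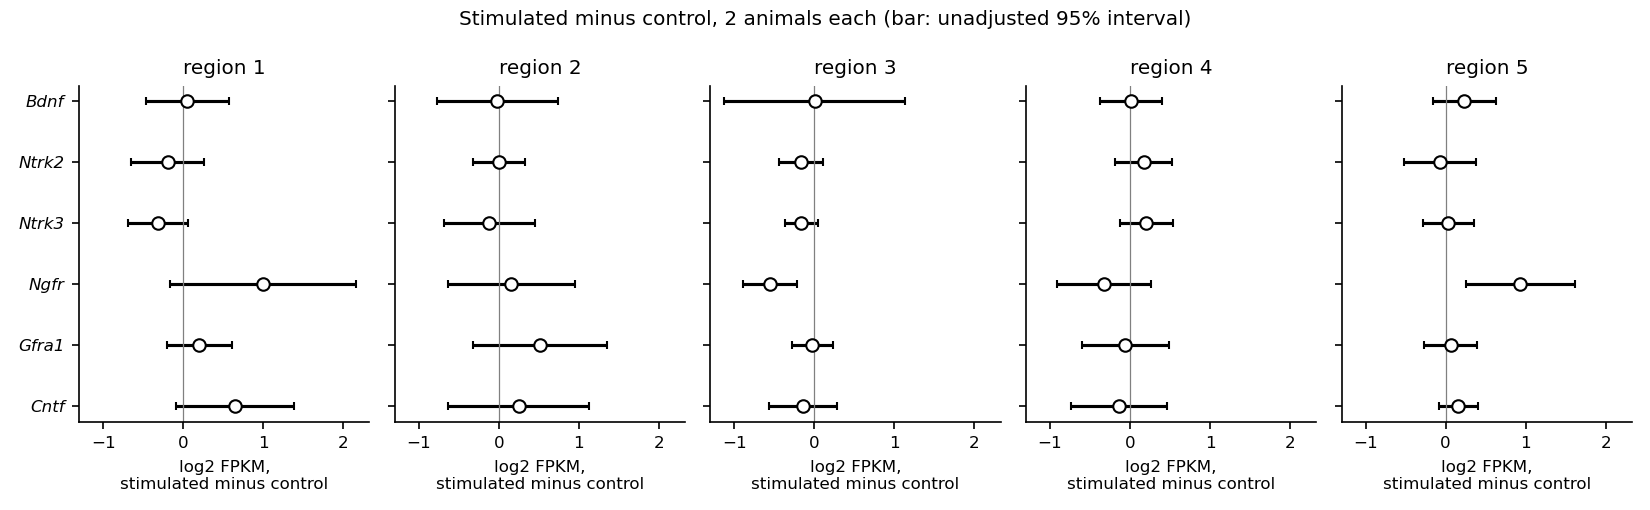
Difference in log2 FPKM, stimulated minus control, of the 6 tested genes in each region, with 95% intervals from limma (2 animals against 2). The Ngfr intervals of Regions 3 and 5 exclude 0 on opposite sides, and no value passed the test over all genes.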

How the data were processed

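Total RNA of 5 regions from 4 rats was sequenced as 51-base reads. Per the labels and the methods of the study, the authors checked reads with FastQC and MultiQC 1.6, aligned them to Rnor6 with TopHat2 2.1.0 and computed FPKM per gene with Cufflinks 2.2.1, and values below 0.1 were set to 0.1 in the deposited table. Tools were run with default parameters, under which TopHat2 and Cufflinks do not use strand, so reads of overlapping genes cannot be told apart. The annotation version is not given in the sources used here. Every column was tied to a sample by its name.

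Log2 FPKM of genes with at least 1 FPKM in any library was fitted with limma 3.58.1 in R 4.3.3 (lmFit, eBayes with a trend), one mean per region over all 20 libraries for region contrasts, the 4 libraries of a region for stimulation, and within-animal differences for effects between regions. P-values were adjusted by Benjamini-Hochberg over all 15210 genes at a threshold of 0.05. The scripts were checked on simulated data. Other descriptions used Python 3.11.15 with pandas 2.3.3, numpy 2.4.6 and scipy 1.17.1, and plots used matplotlib 3.10.9. The 8 genes and all lists were chosen with earlier results of these data known. Named were the 8 genes, and from each list the up to 3 passing genes of largest change and at least 1 FPKM in a group mean (white matter against cord, Region 3 against 4), for stimulation the 3 list genes of smallest p among those reported, Zfp91, and for each of the 6 tested genes the 2 most alike among genes at 1 FPKM or more in at least 10 libraries. Some genes of the lists are not reported here and were left out of the list counts and sums. Alternatives covered the pseudocount, the filter, the scaling, the trend, a replicate block, a single model and each animal left out. Added after the data were seen were fits without the region 2 library of stimulated animal 2, without the stimulated Region 5 libraries, and with control animals alone. FPKM carries no depth per gene, so no counting interval is given.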

Additional observations from a re-analysis of the deposited data

Results flagged for a closer look

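Cntf had a library far from the other 3 in a pair of regions. In Region 2 the gap of stimulated animal 2, at 3.49 FPKM, to its nearest neighbour was 0.880 of the whole range, and in Region 3 the gap of control animal 1, at 11 FPKM, was 0.846 of the range, both above Dixon's critical value. Chance alone gives such a gap in about 1 group of 20, and all 6 tested genes were screened in every region, so gaps of this kind can arise by chance. The Region 2 library of stimulated animal 2 also stood apart in astrocyte markers, at a sum of 1020 FPKM beside a median of 314 FPKM.

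Stimulation effects of opposite direction in different regions, with groups that did not overlap in either, were seen for 3 genes. The share of all genes with such a pair was not computed, so this count is no result about these genes. Within a single region 20.2% (Region 4) to 40.6% (Region 1) of all genes did not overlap. For Ngfr the effect in Region 5 exceeded that in Region 3 by 1.49 on the log2 scale (limma adjusted p = 1). The Ngfr effect in Region 1 exceeded those in Regions 3 and 4 by 1.56 and 1.32, and that in Region 5 exceeded that in Region 4 by 1.25, and these 3 differences were not tested. For Ntrk3 the effect in Region 4 exceeded that in Region 3 by 0.37 (limma adjusted p = 0.929) and that in Region 1 by 0.52, which was not tested. For Ntrk2 the effect in Region 4 exceeded that in Region 3 by 0.34 (limma adjusted p = 0.929).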

How the results depend on the processing

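All 6 tested genes passed between white matter and cord under each of 14 alternatives, with the direction kept, where 72.2% of all genes passed in the main fit. Over the 10 region pairs 43 of 60 values passed, and leaving out 1 animal gave 28 (without stimulated animal 1) to 46. The share of all genes that passed ran from 4.32% (Regions 3 and 5) to 69.3% (Regions 2 and 5). Between a white matter block and a cord region it was at least 47.1%, so these counts are no result about these genes. None of the 43 changed direction, and 19 lost the call under at least 1 alternative. Values that changed direction had not passed. The Ntrk2 difference of Region 1 from 2 ran from -0.070 to 0.055 with 1 animal left out, positive without stimulated animal 2, and was 0.082 in control animals alone. That of Region 3 from 4 ran from -0.038 (without control animal 1) to 0.13 and was -0.024 after quantile normalization. The Region 4 minus 5 difference of Ntrk2 ran from -0.052 to 0.090, negative without stimulated animal 1 or 2, and was -0.024 without the stimulated Region 5 libraries and -0.11 in control animals alone. For the same pair Bdnf became 0.000928 under upper-quartile scaling and Ngfr, at -0.62 over all animals, 0.0095 in control animals alone. The cause was not tested. No stimulation value passed under any alternative. Of the 48 stimulation values, differences of effects included, 22 changed direction under at least 1 alternative, up to a size of 0.66 after the change. None of the 14 without overlap did. Groups without overlap keep their direction when an animal is left out, so only the changes of scaling could have reversed those 14. With a replicate block that paired control and stimulated animals of the same number, which are different animals with correlations of deviations between -0.21 and 0.32, 0 stimulation values passed, and 1 difference of effects passed where none had: that of Ngfr between Regions 5 and 3 (adjusted p = 0.00626, beside 0.00626 to 1 over its 12 alternatives). With the animal as a replicate block the region pairs still gave 43 calls. FPKM without counts and 2 animals in a group limit what small differences can show.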

Other observations

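Among the other trophic factor genes, the smallest unadjusted p with stimulation belonged to the growth factor genes Igf2 and Fgf2 and to Nradd, a relative of the p75 gene. They were picked by that p over all the lists and regions, so their differences and lack of overlap are a description. Groups did not overlap for 20.2% of all genes in Region 4 and for 40.6% in Region 1. Igf2 in the lesion was at 38.5 and 34.9 FPKM in the controls, beside 21.9 and 23.2 FPKM after stimulation. The groups did not overlap, and the difference was -0.70 on the log2 scale (SE 0.12, limma unadjusted p = 0.00423, adjusted p = 1). Fgf2 under the electrodes was at 4.02 and 3.75 FPKM in the controls, beside 6.55 and 8.28 FPKM after stimulation, both above the controls (0.92, SE 0.18, limma unadjusted p = 0.00761, adjusted p = 0.712). Astrocyte markers summed to 645 and 695 FPKM in the controls of that region and to 1071 and 1223 FPKM in the stimulated animals, and their part in the Fgf2 difference was not tested. Nradd in the same region was at 0.648 and 0.681 FPKM in the controls, beside 1.27 and 1.23 FPKM after stimulation (0.91, SE 0.18, limma unadjusted p = 0.00847, adjusted p = 0.712). Fibroblast markers of the lesion, beside Igf2, summed to 62.8 and 67.8 FPKM in controls and to 36.1 and 57.7 FPKM in stimulated animals, and their part was not tested.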
